A study of Mus musculus with 8 samples.

Results

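The 10 genes Med13l, Hnrnpl, Adap1, Zdhhc7, Asb2, Lemd2, Sdc4, Snx5, Palm and Mtss1 were chosen because each has 1 accessible region that lost most of its signal after dTAG-13 in pro-B cells whose EBF1 carries a degron. They are 10 of the 14938 protein-coding genes to which an accessible region was assigned. Each region went to the protein-coding gene whose span lay closest to its centre, at most 100 kb away, which left these genes 141 of 55193 regions in the line EBF1-dTAG_N and 129 of 54239 in the line EBF1-dTAG_C. The nearest gene is a label of position and says nothing of which gene a region acts on. The genes were chosen by the log2 fold changes and p-values of dTAG-13 against DMSO in both lines, so the values below are descriptions and no test of the genes was made.

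EBF1 is a transcription factor that binds DNA as a dimer and, with PAX5 and E2A, sets up the gene programme of early B cells, in part by opening closed chromatin. Accessible chromatin away from promoters often marks enhancers, and a gene can have many of them within and around its span. A dTAG degron is a tag through which the small molecule dTAG-13 brings a protein to a ubiquitin ligase, so that the proteasome destroys it. In ATAC-seq, Tn5 transposase cuts and tags DNA where chromatin is open, and the number of fragments over a region measures its accessibility.

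Chromatin was profiled in mouse pro-B cells transformed with A-MuLV, the Abelson leukaemia virus. In both lines, DMSO cells included, an exogenous modified gene stood in for endogenous EBF1. The labels tell the lines apart by the names EBF1-dTAG_N and EBF1-dTAG_C alone, and whether each is 1 clone or a pool is not given in the sources used here. There were 4 groups of 2 libraries, 8 in all: EBF1-dTAG_N with 0.5 uM dTAG-13 for 6 h, EBF1-dTAG_N with DMSO, the solvent, for 6 h, EBF1-dTAG_C with 0.5 uM dTAG-13 for 6 h and EBF1-dTAG_C with DMSO for 6 h. The series describes the 2 libraries of a group as biological replicates. ATAC-seq does not measure EBF1 protein, and in bulk cells a loss of accessibility in some cells and a smaller loss in every cell cannot be told apart.

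Peak lists were called per library and held 37786 ± 2737 peaks after dTAG-13 and 40890 ± 1023 after DMSO in EBF1-dTAG_N (SD, n = 2 each). They held 34292 ± 127 peaks after dTAG-13 and 41290 ± 1201 after DMSO in EBF1-dTAG_C (SD, n = 2 each). Read depth is unknown. The lowest background pileup of a list, which moves with depth, fell by 11.04% after dTAG-13 relative to DMSO in EBF1-dTAG_N and fell by 27.8% in EBF1-dTAG_C, and the part of depth in the pileups below was not tested. Promoter windows of 10 pro-B marker genes held a peak in 6 to 8 cases per library, with Ebf1 and Dntt at none. The T cell, myeloid and erythroid windows held a peak in 0 or 1 cases per library.

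For each gene the falling region with the smallest p-value is called the lead region. In the authors' deposited tables the lead regions fell 5.37-fold to 33.6-fold in EBF1-dTAG_N and 5.14-fold to 53.7-fold in EBF1-dTAG_C, with medians of 11.4-fold and 8.94-fold. The lead regions of all 10 genes overlapped between the lines, a count that the choice of genes partly fixed. With the most negative region of each gene as its lead, 7 of the 10 overlapped. By the size of the F score in the authors' deposited tables, 8 of the 10 leads ranked between 1 and 9 in EBF1-dTAG_C, with Mtss1 at 433 and Palm at 555. In EBF1-dTAG_N they ranked between 1 (Lemd2) and 203 (Adap1). Just outside this set in EBF1-dTAG_C stood regions of Kank1 and Cyth4, at ranks 10 and 11 with log2 fold changes of -3.05 and -3.72 in the authors' deposited table, next to Snx5 at rank 9 with -4.64, and rank 7 was a region with no protein-coding gene within 100 kb. In EBF1-dTAG_N regions of Fetub and Lhpp, at ranks 3 and 6 with -3.31 and -2.50 in the authors' deposited table, stood among the leads and are not members of the set.

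Set beside each gene's other regions, the loss was far larger at the lead than at most of its neighbours. Of the 131 other regions in EBF1-dTAG_N, 37 fell and 31 rose at an adjusted p under 0.05 in the authors' deposited table, that is 28.2% and 23.7%. Over all regions tested in that line 18.5% fell and 18.8% rose. Of the 119 other regions in EBF1-dTAG_C, 12 fell, 10.1%, and 0 rose per the authors' deposited table, where over all regions 6.62% fell and 0.308% rose. In that line 3 member regions had a positive fold at an unadjusted p under 0.05 in the authors' deposited table. The median log2 fold change of the other regions was 0.04 in EBF1-dTAG_N and 0.01 in EBF1-dTAG_C, against 0.17 and 0.09 over all regions of the authors' deposited tables. When folds were centred on those medians, the other regions of EBF1-dTAG_N had a median of -0.13, and its rises dropped to 15 while its falls, leads included, numbered 54 in place of 47. Over all regions of EBF1-dTAG_N the centred folds gave 20.8% falls and 7.98% rises. The median over genes of the gap between the lead and the median of the gene's other regions was -3.44 in EBF1-dTAG_N and -3.04 in EBF1-dTAG_C on the log2 scale. Over all 3166 genes of EBF1-dTAG_N and 1742 of EBF1-dTAG_C with at least 4 regions and a fall, the same median was -2.32 and -2.31. The 10 genes and their leads were chosen for a strong fall, so a wider gap was partly fixed by that choice.

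**Figure D1:**
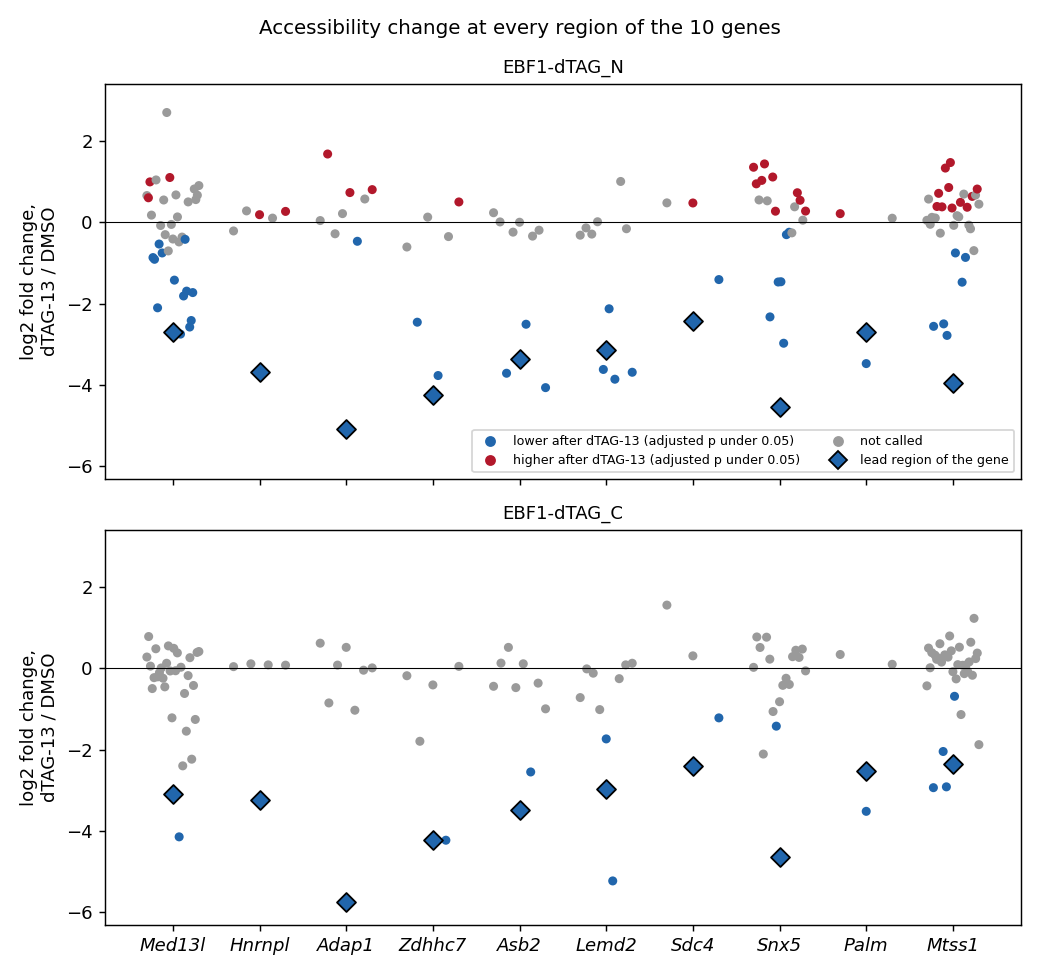
Log2 fold change of dTAG-13 over DMSO from the authors' deposited tables (vertical axis) for every region of the 10 genes (horizontal axis, regions in genome order within a gene), in EBF1-dTAG_N above and EBF1-dTAG_C below. Diamonds are lead regions, which lie between -2.42 and -5.07 in EBF1-dTAG_N and between -2.36 and -5.75 in EBF1-dTAG_C, while most other regions lie near 0.

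A second falling region was present in most of the genes. In EBF1-dTAG_N 9 of the 10 had one, all but Hnrnpl, and in EBF1-dTAG_C 8 had one, all but Hnrnpl and Adap1, at an adjusted p under 0.05 in the authors' deposited tables. Over all genes with a region, 34.4% in EBF1-dTAG_N and 16.5% in EBF1-dTAG_C had at least 1 falling region. Among the genes with at least 4 regions and a fall, 1867 of 3166 in EBF1-dTAG_N, 58.97%, and 600 of 1742 in EBF1-dTAG_C, 34.4%, had a second falling region. The lead was the most negative region of its gene for 6 genes in EBF1-dTAG_N and 5 in EBF1-dTAG_C in the authors' deposited tables. All 12 of the further falls in EBF1-dTAG_C also fell in EBF1-dTAG_N. Of the 37 further falls in EBF1-dTAG_N, 32.4% fell in EBF1-dTAG_C, 17 were not called there and 8 had no region there. Of those 17, 16 had a negative fold in the authors' deposited table of EBF1-dTAG_C. Over all regions, 95.9% of the falls of EBF1-dTAG_C overlapped a fall of EBF1-dTAG_N, and 33.7% of the falls of EBF1-dTAG_N a fall of EBF1-dTAG_C.

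The leads were wide, abundant regions, and none lay within 1 kb of a transcription start. Their median width was 724 bp in EBF1-dTAG_N and 654 bp in EBF1-dTAG_C, against 299 and 296 bp for the genes' other regions. Their mean abundance, not divided by width, stood at a median percentile of 97.7 in EBF1-dTAG_N and 91.7 in EBF1-dTAG_C among all regions of the authors' deposited tables, and the lead was the most abundant region of its gene for 6 genes in EBF1-dTAG_N and 4 in EBF1-dTAG_C. All falling regions had a median width of 332 bp in EBF1-dTAG_N and 352 bp in EBF1-dTAG_C. Their median abundance percentile was 54.4 and 61.4 in the authors' deposited tables. The leads were chosen by the smallest p-value, which favours regions with many fragments. The part of that choice in their width and abundance was not tested. The distance to a start was taken from the centre of the region. Of the genes' other regions, 14 of 131 in EBF1-dTAG_N and 12 of 119 in EBF1-dTAG_C lay within 1 kb of a start. Over all regions 19.2% and 19.4% did. Among all falling regions, those that leads were drawn from, 6.65% in EBF1-dTAG_N and 5.87% in EBF1-dTAG_C lay that near a start. Of the leads, 5 lay inside the span of their gene, and whether these are exonic or intronic was not analysed here.

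**Figure D2:**
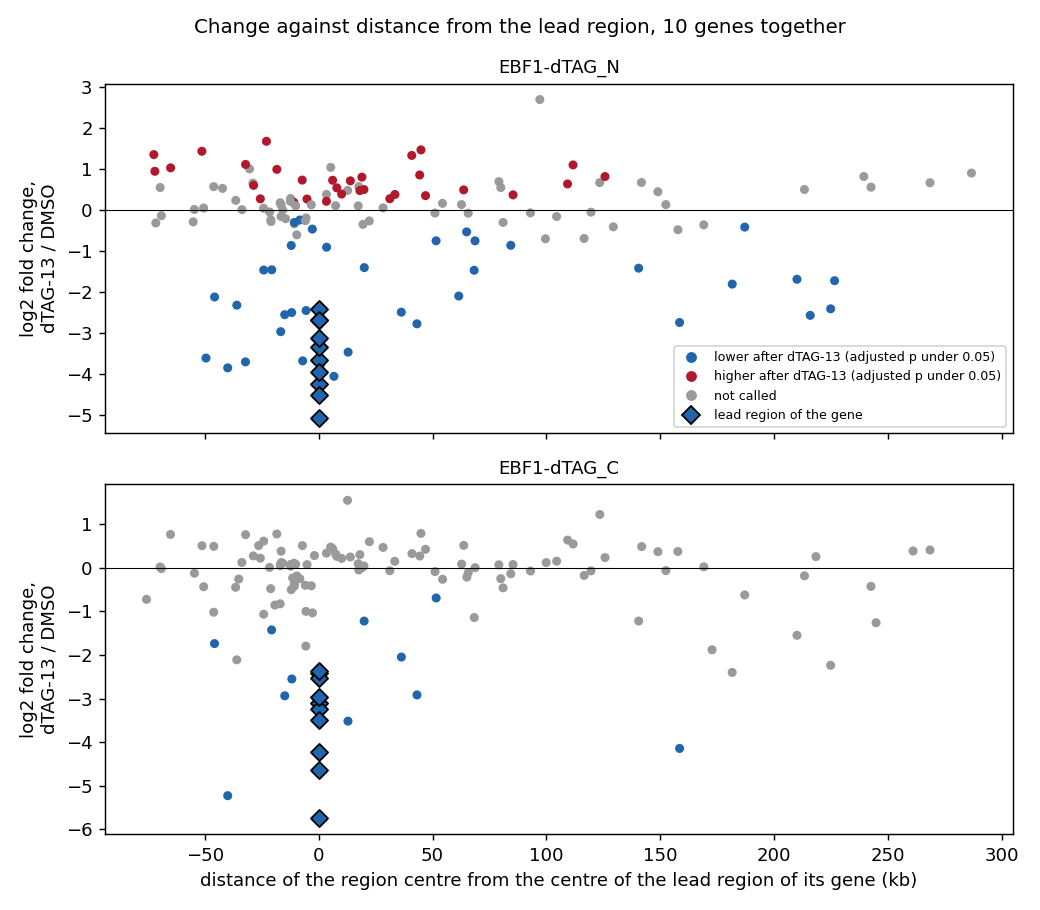
Log2 fold change of dTAG-13 over DMSO from the authors' deposited tables against the distance in kb from the centre of the lead region of the same gene, for all regions of the 10 genes, EBF1-dTAG_N above and EBF1-dTAG_C below. Within 20 kb of a lead, 13 of 45 other regions fell and 12 rose in EBF1-dTAG_N, and 5 of 44 fell and 0 rose in EBF1-dTAG_C.

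Farther than 20 kb from the lead, 24 of 86 other regions fell and 19 rose in EBF1-dTAG_N by the authors' deposited table. In EBF1-dTAG_C 7 of 75 fell and 0 rose there by the authors' deposited table. The difference between near and far regions was not tested.

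A region overlapping a gene's own promoter window is called its promoter region here. A fall was called in that of Sdc4 and in no other of the 7 genes with one. RefSeq promoter windows of GRCm38.p6, which run from 250 bases before to 50 bases after a start, were matched for 8 of the 10 genes, all but Lemd2 and Mtss1. Of the 7 promoter regions assigned to their own gene, 1 fell in each line, that of Sdc4, by the authors' deposited tables. Over all regions within 1 kb of a start, 678 of 10582 fell in EBF1-dTAG_N, 6.41%, and 211 of 10497 in EBF1-dTAG_C, 2.01%, by the authors' deposited tables. That is a wider measure than the promoter windows. By it, 3 of 14 of the genes' other regions near any start fell in EBF1-dTAG_N and 2 of 12 in EBF1-dTAG_C. Rises near starts were common in EBF1-dTAG_N, at 3056 of 10582 regions within 1 kb of a start, 28.9%, by the authors' deposited table. In EBF1-dTAG_C 10 of 10497 rose, 0.0953%. The promoter regions of Hnrnpl, Adap1, Zdhhc7 and Snx5 rose in EBF1-dTAG_N by 0.18 to 0.80 on the log2 scale of the authors' deposited table, but none of these 4 was called once folds were centred on the median. The same 4 lay between -0.07 and 0.11 in the authors' deposited table of EBF1-dTAG_C and were not called. The promoter region of Snx5 also holds the start of Mgme1. For Med13l the promoter region had log2 fold changes of -0.08 in EBF1-dTAG_N and -0.11 in EBF1-dTAG_C in the authors' deposited tables, without a call. A region just outside the Med13l window, starting at 118559851, was called a fall in EBF1-dTAG_N, at -0.54 in the authors' deposited table. It remained called after centring. The overlapping region of EBF1-dTAG_C, starting at 118560034, stood at -0.21 without a call. At an internal start of Asb2 the log2 fold changes were -0.25 in EBF1-dTAG_N and -0.48 in EBF1-dTAG_C in the authors' deposited tables, also without a call. The first became a fall after centring. In the Palm window EBF1-dTAG_C had a region assigned to Prss57, at -0.09 in the authors' deposited table, and EBF1-dTAG_N had none.

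**Figure D3:**
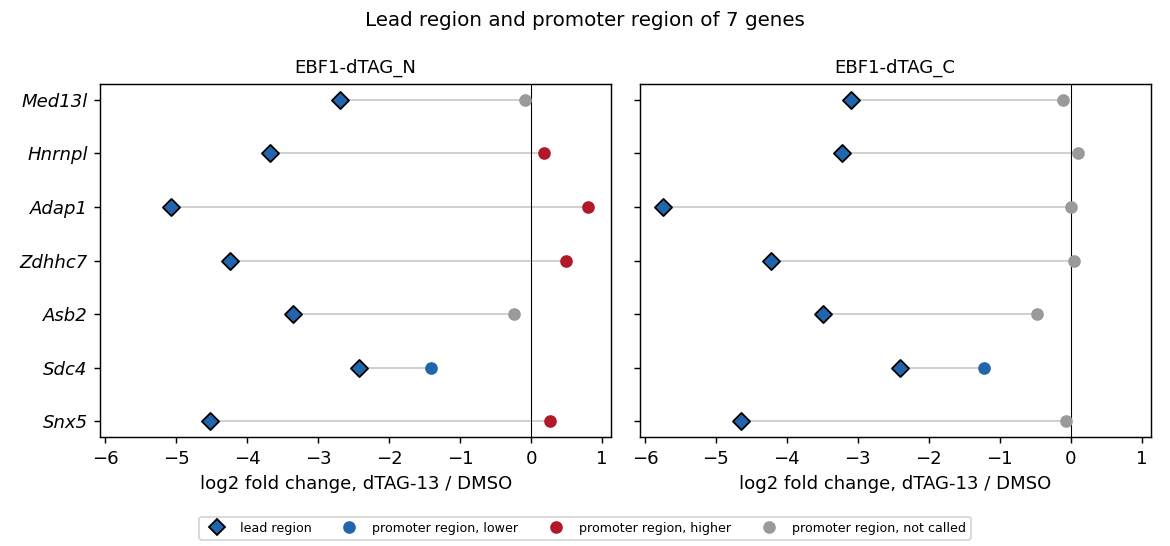
Log2 fold change of dTAG-13 over DMSO from the authors' deposited tables (horizontal axis) at the lead region (diamonds) and at the promoter region (circles) of 7 genes, EBF1-dTAG_N left and EBF1-dTAG_C right. Sdc4 is the gene whose promoter region fell, to -1.41 in EBF1-dTAG_N and -1.22 in EBF1-dTAG_C.

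The promoters of Sdc4 and Zdhhc7 are shown because they hold the same 10-base EBF1 motif, while the promoter region of Sdc4 fell and that of Zdhhc7 did not pass as a fall. The motif searched was TCCC and GGGA with any 2 bases between them, on both strands, which is its own reverse complement, and 0.904% of all 32851 RefSeq promoter windows hold it. Among the windows of the 10 genes only these 2 did, with 1 match each, shown in capitals and starting at -87 and -38 from the start of transcription.
Sdc4 promoter, chr2:164443139-164443438, minus strand: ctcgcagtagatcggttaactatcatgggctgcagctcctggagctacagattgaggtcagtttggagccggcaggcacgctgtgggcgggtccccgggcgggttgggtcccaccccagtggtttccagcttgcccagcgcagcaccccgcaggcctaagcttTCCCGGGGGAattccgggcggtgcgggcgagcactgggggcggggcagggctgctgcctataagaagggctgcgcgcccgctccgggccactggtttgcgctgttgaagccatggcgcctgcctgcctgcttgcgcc
Zdhhc7 promoter, chr8:120101423-120101722, minus strand: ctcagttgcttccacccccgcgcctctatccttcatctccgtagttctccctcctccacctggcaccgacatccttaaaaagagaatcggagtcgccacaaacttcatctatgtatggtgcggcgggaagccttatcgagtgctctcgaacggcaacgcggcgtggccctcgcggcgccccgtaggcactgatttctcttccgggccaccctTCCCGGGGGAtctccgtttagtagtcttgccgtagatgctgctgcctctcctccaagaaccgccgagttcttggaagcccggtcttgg
Both windows carry TCCCGGGGGA. The Sdc4 promoter region fell by 1.41 on the log2 scale in EBF1-dTAG_N and by 1.22 in EBF1-dTAG_C in the authors' deposited tables. That of Zdhhc7 stood at 0.49 and 0.04 in the authors' deposited tables, the first called as a rise only without centring. The shorter motif TCCCNG, which overlaps the longer one and is found in 64.7% of all windows, matched 5 times in the Adap1 window, 3 times in that of Snx5 and not at all in that of Hnrnpl. A match of letters is a description of the window and was not tied to binding.

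Peak heights at the lead regions separated the treatments in every gene. The leads were chosen as falls between these same libraries, so such a separation was largely fixed by that choice. The value given below is the summit pileup, the number of fragments or tags stacked at the top of a peak, solved from the authors' fold enrichment and p-value for that peak. It is not scaled for depth, and the summits of different libraries need not lie at the same place in a region. The lowest summit in any list was 4 or 5, so a region without a peak is not at 0. At 10 of 10 leads in each line the dTAG-13 libraries had lower summits than either DMSO library, or no peak. No dTAG-13 list had a peak at 2 leads in EBF1-dTAG_N and at 4 in EBF1-dTAG_C. Over all regions, falling or not, 10.3% and 8.46% had peaks in the 2 DMSO lists alone. Of the genes' further falls, 20 of 37 in EBF1-dTAG_N and 8 of 12 in EBF1-dTAG_C did.

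**Figure D4:**
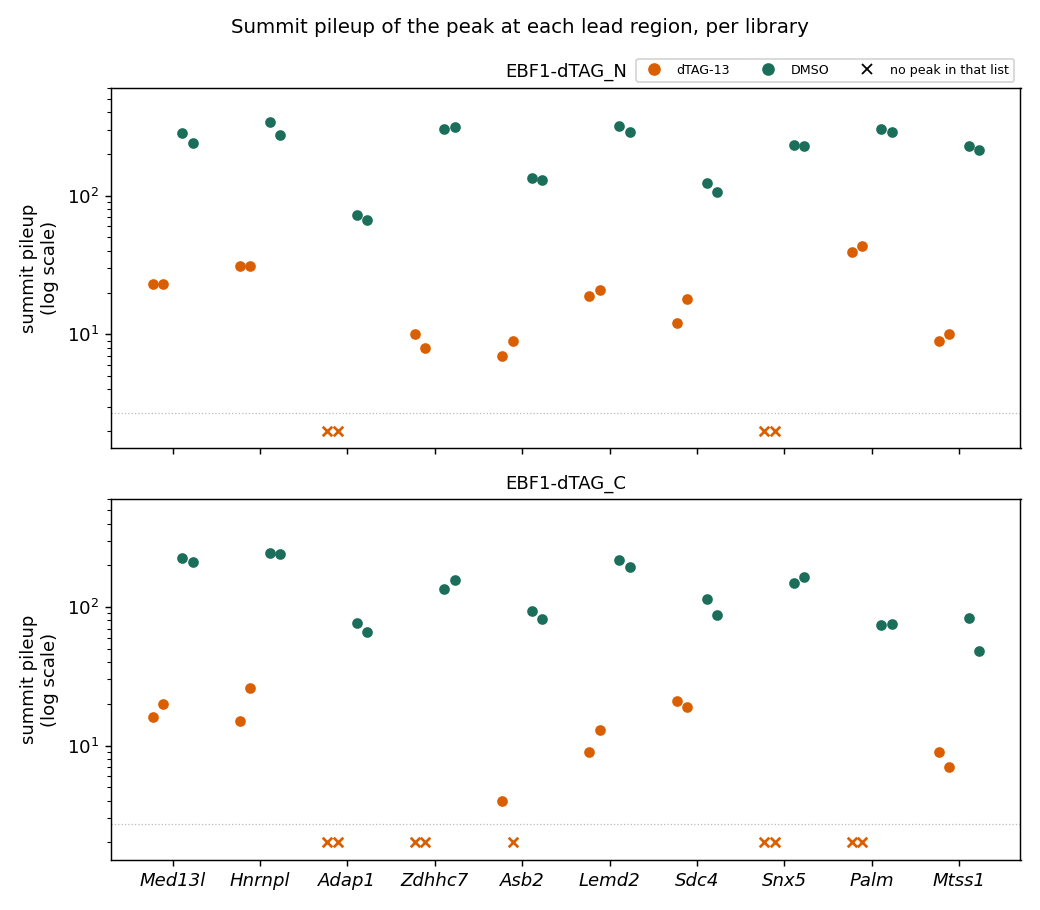
Summit pileup (vertical axis, log scale, not scaled for depth) of the peak at each lead region in every library, with dTAG-13 left of DMSO for each gene, EBF1-dTAG_N above and EBF1-dTAG_C below. Crosses under the dotted line mark lists with no peak there. DMSO libraries lie between 48 and 338, dTAG-13 libraries between 4 and 43 or without a peak.

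Med13l, Hnrnpl and Lemd2 encode proteins of the nucleus. Med13l encodes a subunit of the kinase module of Mediator, the complex that links transcription factors to RNA polymerase II. Its lead region, chr5:118494657-118495669 on GRCm38, lies 65.2 kb outside the gene, with no other protein-coding gene within 100 kb and the nearest listed start, that of Gm46921, 2.53 kb away. The summit pileup was 23 and 23 in EBF1-dTAG_N after dTAG-13, against 282 and 240 after DMSO. In EBF1-dTAG_C it was 16 and 20 after dTAG-13, against 225 and 210 after DMSO. All 4 dTAG-13 libraries kept a low peak, far under the DMSO libraries. In EBF1-dTAG_N the summit of dTAG-13 replicate 1 lay 132 bp from the region's start, and that of replicate 2 at 697 bp. The DMSO summits of that line lay at 722 and 789 bp. The region fell 6.46-fold in EBF1-dTAG_N and 8.52-fold in EBF1-dTAG_C in the authors' deposited tables, with adjusted p-values given as 0 and 1.27e-07. With 14 falls and 3 rises among 36 regions, Med13l had the most falls and the most regions of the 10 genes in EBF1-dTAG_N. Palm and Sdc4, with 2 falls among 4 regions each, had a larger share there. So did Lemd2 with 5 of 11, Zdhhc7 with 3 of 7 and Asb2 with 4 of 10. In EBF1-dTAG_C 2 of 31 Med13l regions fell and none rose, all by the authors' deposited tables. Among the Med13l falls an intragenic region, starting at 118653472, lay 158 kb from the lead. It fell by 2.75 on the log2 scale in EBF1-dTAG_N and by 4.14 in EBF1-dTAG_C in the authors' deposited tables (adjusted p = 2.87e-23 and 0.00305). There no dTAG-13 list had a peak, and the DMSO summits were 69 and 58 in EBF1-dTAG_N and 29 and 26 in EBF1-dTAG_C. The rise with the smallest p-value, starting at 118476686, was 0.99 on the log2 scale of the authors' deposited table of EBF1-dTAG_N (adjusted p = 8.79e-06). It stood at 0.77 without a call in the authors' deposited table of EBF1-dTAG_C. In EBF1-dTAG_N its unscaled summits of 19 and 35 after dTAG-13 overlapped the 28 and 23 after DMSO.

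Hnrnpl encodes an RNA-binding protein that regulates splicing. It had 1 strong fall and no other fall in either line. Its lead, chr7:28821159-28821842, lies inside the gene near its end, 10.6 kb from its own start and 3.86 kb from that of Ech1, with 12 other protein-coding genes within 100 kb. EBF1-dTAG_N summits were 31 and 31 after dTAG-13, against 338 and 276 after DMSO. EBF1-dTAG_C summits were 15 and 26 after dTAG-13, against 247 and 242 after DMSO. The groups stood apart in both lines, and the peaks after dTAG-13 were narrower, covering 265 bp on average against 662 bp after DMSO in EBF1-dTAG_N and 197 bp against 625 bp in EBF1-dTAG_C. The summits also differed in place. In EBF1-dTAG_N they lay 124 and 133 bp from the region's start after dTAG-13, against 273 and 272 bp after DMSO. In EBF1-dTAG_C they lay at 133 and 97 bp after dTAG-13, against 260 and 266 bp after DMSO. The fall was 12.8-fold in EBF1-dTAG_N and 9.38-fold in EBF1-dTAG_C in the authors' deposited tables (adjusted p given as 0 and 8.63e-07). The other 4 regions in EBF1-dTAG_C lay between 0.04 and 0.11 on the log2 scale of the authors' deposited table, and the other 5 in EBF1-dTAG_N between -0.22 and 0.28. Of these 5, the promoter region and 1 other were called rises in the authors' deposited table, and neither after centring. At the promoter region the unscaled summits were 82 and 87 after dTAG-13, against 105 and 99 after DMSO in EBF1-dTAG_N, the opposite order to its fold change of 0.18 in the authors' deposited table.

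Lemd2 encodes a LEM domain protein of the inner nuclear membrane. Its lead, chr17:27258521-27259570, lies 53.6 kb outside the gene, with Ip6k3 the other protein-coding gene within 100 kb. Summits reached 19 and 21 after dTAG-13, against 317 and 289 after DMSO in EBF1-dTAG_N. They reached 9 and 13 after dTAG-13, against 218 and 193 after DMSO in EBF1-dTAG_C. What was 1 broad peak in 3 of the 4 DMSO lists was listed as 2 peaks in all 4 dTAG-13 lists. The region fell 8.81-fold in EBF1-dTAG_N and 7.83-fold in EBF1-dTAG_C in the authors' deposited tables (adjusted p given as 0 and 1.09e-06). Lemd2 had 5 falls among 11 regions in EBF1-dTAG_N and 3 among 10 in EBF1-dTAG_C, with no rise in either of the authors' deposited tables. A region 39.9 kb from the lead, starting at 27218922, fell further than the lead, by 3.86 on the log2 scale in EBF1-dTAG_N and 5.23 in EBF1-dTAG_C in the authors' deposited tables (adjusted p = 2.82e-41 and 9.40e-05). Its DMSO summits were lower than those of the lead, 72 and 78 in EBF1-dTAG_N and 33 and 44 in EBF1-dTAG_C, with no peak after dTAG-13.

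Asb2 encodes an ankyrin repeat protein with a SOCS box that picks substrates for a cullin ubiquitin ligase. Its lead, chr12:103358930-103359782, lies 3.41 kb upstream of the gene, with 6 other protein-coding genes within 100 kb. Pileups of 7 and 9 after dTAG-13 stood against 135 and 129 after DMSO in EBF1-dTAG_N. In EBF1-dTAG_C dTAG-13 replicate 1 had a summit of 4 and replicate 2 had no peak, against 94 and 82 after DMSO. The loss was 10.2-fold in EBF1-dTAG_N and 11.2-fold in EBF1-dTAG_C in the authors' deposited tables (adjusted p = 1.16e-272 and 1.09e-06). A second strong region inside the gene, starting at 103347119, had no peak in any dTAG-13 list, while its DMSO summits of 262 and 247 in EBF1-dTAG_N and 214 and 179 in EBF1-dTAG_C exceeded those of the lead. It fell by 2.51 on the log2 scale in EBF1-dTAG_N and by 2.55 in EBF1-dTAG_C in the authors' deposited tables (adjusted p = 2.11e-210 and 3.06e-06). Of the 10 Asb2 regions in EBF1-dTAG_N 4 fell, and of the 9 in EBF1-dTAG_C 2 fell, with no rise, by the authors' deposited tables. Centring raised the falls in EBF1-dTAG_N to 7.

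Adap1, Snx5, Mtss1, Palm and Zdhhc7 encode proteins that act at membranes. Adap1 encodes a GTPase-activating protein for ARF GTPases, which control membrane traffic. Its lead, chr5:139306307-139306833, lies inside the gene, 18.9 kb from the start, with 7 other protein-coding genes within 100 kb. No dTAG-13 library of either line had a peak there, against DMSO summits of 72 and 67 in EBF1-dTAG_N and 77 and 66 in EBF1-dTAG_C. It had the largest fold of the 10 leads, 33.6-fold lower in EBF1-dTAG_N and 53.7-fold lower in EBF1-dTAG_C in the authors' deposited tables (adjusted p = 9.30e-106 and 1.09e-06). Its gap to the median of the gene's other regions, -5.46 and -5.75, ranked 49 of 3166 genes in EBF1-dTAG_N and 23 of 1742 in EBF1-dTAG_C among genes with at least 4 regions and a fall. Of the other Adap1 regions 1 of 8 fell and 3 rose in EBF1-dTAG_N, and none of 7 was called in EBF1-dTAG_C by the authors' deposited tables. That fall, 2.77 kb from the lead, had a log2 fold change of -0.47 per the authors' deposited table (adjusted p = 0.00908). The rise with the smallest p-value, starting at 139299106 and 7.21 kb from the lead, was 0.73 per the authors' deposited table (adjusted p = 2.01e-14), and its unscaled summits of 118 and 146 after dTAG-13 overlapped the 126 and 123 after DMSO. It stood at 0.51 without a call in the authors' deposited table of EBF1-dTAG_C.

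Snx5 encodes a sorting nexin with a BAR domain that works in sorting from endosomes. Its lead, chr2:144239300-144239798, lies 10.6 kb beyond the gene's end and 31.0 kb from its start, with Mgme1 and Ovol2 within 100 kb. After dTAG-13 no list of either line had a peak there, against DMSO summits of 234 and 229 in EBF1-dTAG_N and 150 and 164 in EBF1-dTAG_C. The region was 23.1-fold lower in EBF1-dTAG_N and 24.97-fold lower in EBF1-dTAG_C in the authors' deposited tables (adjusted p = 5.60e-250 and 1.43e-06). Around this loss Snx5 held changes in both directions. In EBF1-dTAG_N 7 of 21 regions fell and 9 rose by the authors' deposited table, and 8 fell and 6 rose after centring. In EBF1-dTAG_C 2 of 18 fell and none rose by the authors' deposited table. The next fall in EBF1-dTAG_N, starting at 144222727, was -2.97 per the authors' deposited table (adjusted p = 2.14e-32) and -0.83 without a call in EBF1-dTAG_C. The next fall in EBF1-dTAG_C, starting at 144218766, was -1.43 per the authors' deposited table (adjusted p = 0.0272), beside -1.46 at the overlapping region of EBF1-dTAG_N. The rise with the smallest p-value, starting at 144188154, was 1.43 in the authors' deposited table of EBF1-dTAG_N (adjusted p = 5.93e-06), with summits of 29 and 12 after dTAG-13 against 7 and 7 after DMSO. At that region EBF1-dTAG_C had 0.51 in the authors' deposited table, without a call.

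Mtss1 encodes an I-BAR protein that bends membranes and binds actin. Its lead, chr15:58996646-58997154, lies inside the gene, with 3 other protein-coding genes within 100 kb. EBF1-dTAG_N had summits of 9 and 10 after dTAG-13, against 228 and 213 after DMSO. EBF1-dTAG_C had summits of 9 and 7 after dTAG-13, against 84 and 48 after DMSO. Both lines ended low, but the DMSO peak was higher in EBF1-dTAG_N. The fall was 15.5-fold in EBF1-dTAG_N and 5.14-fold in EBF1-dTAG_C in the authors' deposited tables (adjusted p = 2.10e-170 and 1.27e-04), and this difference of -1.60 on the log2 scale, EBF1-dTAG_N minus EBF1-dTAG_C, was the largest among the 10 leads and was not tested. Mtss1 had 7 falls and 11 rises among 33 regions in EBF1-dTAG_N, and 8 and 5 after centring, against 5 falls and no rise among 34 in EBF1-dTAG_C by the authors' deposited tables. All 4 further falls of EBF1-dTAG_C fell in EBF1-dTAG_N too. A region starting at 59039865, 43.2 kb from the lead, was at -2.78 in EBF1-dTAG_N and -2.92 in EBF1-dTAG_C in the authors' deposited tables (adjusted p = 9.81e-32 and 7.57e-04), with no peak after dTAG-13 and DMSO summits of 60 and 71 and of 30 and 38. A region starting at 59105969 rose by 0.63 in the authors' deposited table of EBF1-dTAG_N (adjusted p = 6.60e-05) and stood at 0.63 without a call in EBF1-dTAG_C. In EBF1-dTAG_N its unscaled summits of 55 and 89 after dTAG-13 overlapped the 61 and 70 after DMSO.

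Palm encodes paralemmin, a lipid-anchored protein of the plasma membrane. Its lead, chr10:79794648-79795410, lies inside the gene, 1.47 kb from its start, with 15 other protein-coding genes within 100 kb. Summits were 39 and 43 in EBF1-dTAG_N after dTAG-13, against 301 and 286 after DMSO. EBF1-dTAG_C had no peak after dTAG-13, against 74 and 76 after DMSO. The lines differed in the height of the DMSO peak, while the folds were close, 6.48-fold lower in EBF1-dTAG_N and 5.74-fold lower in EBF1-dTAG_C in the authors' deposited tables (adjusted p given as 0 and 2.04e-04). A smaller region inside the gene, starting at 79807754 and 12.9 kb from the lead, fell by 3.47 in EBF1-dTAG_N and by 3.52 in EBF1-dTAG_C on the log2 scale of the authors' deposited tables (adjusted p = 1.13e-47 and 0.00862). There EBF1-dTAG_N had a summit of 13 in dTAG-13 replicate 1 and no peak in replicate 2, against 74 and 84 after DMSO. EBF1-dTAG_C had a peak in DMSO replicate 2, with a summit of 10, and in no other list. The remaining Palm regions, 2 in each line, lay between 0.09 and 0.33 in the authors' deposited tables, and 1 of them, starting at 79798235, was called a rise of 0.21 in EBF1-dTAG_N (adjusted p = 0.0347), lost after centring.

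Zdhhc7 encodes an enzyme that attaches palmitate to proteins. Its lead, chr8:120081129-120081807, lies at the far end of the gene, 20.02 kb from the start, with 3 other protein-coding genes within 100 kb. In EBF1-dTAG_N the summits of 10 and 8 after dTAG-13 stood against 304 and 311 after DMSO. In EBF1-dTAG_C no dTAG-13 list had a peak, against 135 and 157 after DMSO. The region was 19.0-fold lower in EBF1-dTAG_N and 18.6-fold lower in EBF1-dTAG_C in the authors' deposited tables (adjusted p given as 0 and 1.09e-06). A narrower region 0.913 kb away, starting at 120082265, fell with it, by 3.77 in EBF1-dTAG_N and 4.23 in EBF1-dTAG_C on the log2 scale of the authors' deposited tables (adjusted p = 1.46e-41 and 2.30e-04). It had no peak after dTAG-13, against DMSO summits of 52 and 46 in EBF1-dTAG_N and 26 and 28 in EBF1-dTAG_C. In all, 3 of 7 Zdhhc7 regions fell in EBF1-dTAG_N and 2 of 6 in EBF1-dTAG_C by the authors' deposited tables. The promoter region, called a rise in EBF1-dTAG_N (adjusted p = 0.0355 in the authors' deposited table), had summits of 6 and 8 after dTAG-13 against 9 and 8 after DMSO, close to the lowest a list holds.

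Sdc4 encodes syndecan-4, a heparan sulfate proteoglycan of the cell surface. Of the 7 genes with a promoter region of their own it was the one in which lead and promoter both fell. The lead, chr2:164422654-164423803, lies 1.02 kb beyond the end of the gene and 19.96 kb from its start, with 8 other protein-coding genes within 100 kb. After dTAG-13 its summits were 12 and 18 in EBF1-dTAG_N, against 123 and 106 after DMSO. After dTAG-13 they were 21 and 19 in EBF1-dTAG_C, against 115 and 88 after DMSO. The groups stood apart in both lines, but their summits lay at different places in the region. In EBF1-dTAG_N they lay 580 and 641 bp from its start after dTAG-13, against 153 and 152 bp after DMSO. In EBF1-dTAG_C they lay at 635 and 632 bp after dTAG-13, against 154 and 150 bp after DMSO. Peaks covered 442 bp on average after dTAG-13 against 1143 bp after DMSO in EBF1-dTAG_N, and 344 bp against 1109 bp in EBF1-dTAG_C. The lead fell 5.37-fold in EBF1-dTAG_N and 5.29-fold in EBF1-dTAG_C in the authors' deposited tables (adjusted p = 9.11e-224 and 1.42e-06). At the promoter, EBF1-dTAG_N had a summit of 23 in dTAG-13 replicate 1 and no peak in replicate 2, against 86 and 83 after DMSO. EBF1-dTAG_C had 21 and 21 after dTAG-13 there, against 74 and 55 after DMSO. The promoter falls had adjusted p-values of 8.86e-26 and 0.00200 in the authors' deposited tables and remained called after centring. Between them, 1.86 kb from the start, a region rose by 0.47 in EBF1-dTAG_N (adjusted p = 1.20e-06) and stood at 0.30 without a call in EBF1-dTAG_C in the authors' deposited tables. Its unscaled summits overlapped, 144 and 176 after dTAG-13 against 155 and 134 after DMSO in EBF1-dTAG_N.

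Over all member regions, the unscaled summits were lower after dTAG-13 at most called falls that had a peak in every list, and also at many regions without a call. In EBF1-dTAG_N 20 of the 37 further falls had peaks in the 2 DMSO lists alone. Another 7 had a peak in all 4 lists, and at 6 of these both dTAG-13 summits lay below both DMSO summits. Of the 31 rises 24 had a peak in all 4 lists, with both dTAG-13 summits above both DMSO summits at 4, below them at 5 and overlapping at 15. Of the 63 uncalled regions 27 had a peak in all 4 lists, with both dTAG-13 summits below both DMSO summits at 16 and above them at 0. In EBF1-dTAG_C 8 of the 12 further falls had peaks in the 2 DMSO lists alone. Of its 107 uncalled regions 55 had a peak in all 4 lists, with both dTAG-13 summits below both DMSO summits at 27 and above them at 1. The summits are not scaled for depth, the lowest background pileup was lower after dTAG-13, and the part of depth was not tested. At least 1 rise was called in 8 of the 10 genes in EBF1-dTAG_N and in none in EBF1-dTAG_C by the authors' deposited tables, where over all genes 41.4% and 1.01% had one. After centring 5 of the 10 genes had a rise in EBF1-dTAG_N, Med13l, Adap1, Sdc4, Snx5 and Mtss1, and 0 in EBF1-dTAG_C. The share over all genes after centring was not computed, so these counts have no like share beside them.

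Relatives of the 10 genes, taken from lists of gene families and complexes, had falling regions at shares near those over all genes, 34.4% in EBF1-dTAG_N and 16.5% in EBF1-dTAG_C. Of 102 family genes with a region in EBF1-dTAG_N, members left out, 33 had a falling region, 32.4%, and 50 a rising one, 49.0% beside 41.4% over all genes, which became 22 after centring. Of 103 in EBF1-dTAG_C 16 had a falling region, 15.5%, and 3 a rising one by the authors' deposited tables. In the Mediator kinase module, Med13, the paralogue of Med13l, had a region that fell by 1.12 on the log2 scale in EBF1-dTAG_N and by 0.91 in EBF1-dTAG_C in the authors' deposited tables. Among splicing regulators, Hnrnpll had 5 falls among 8 regions in EBF1-dTAG_N and 2 among 9 in EBF1-dTAG_C by the authors' deposited tables. The Hnrnpll region with the smallest p-value differed between the lines. In EBF1-dTAG_N it lay 48.0 kb from the gene and fell by 1.07 on the log2 scale of the authors' deposited table. In EBF1-dTAG_C it lay 38.1 kb from the gene and fell by 1.46 in the authors' deposited table. For every family the region was picked in each line on its own. Snx8, another sorting nexin, had losses of the size seen at the leads, 8.42-fold in EBF1-dTAG_N and 11.5-fold in EBF1-dTAG_C in the authors' deposited tables. Among palmitoyltransferases Zdhhc18 in EBF1-dTAG_N, 7.93-fold lower, and Zdhhc19 in EBF1-dTAG_C, 5.93-fold lower, came first in the authors' deposited tables. Pakap, which RefSeq lists with the synonym Palm2, a paralemmin, was 4.23-fold lower in EBF1-dTAG_N and 6.11-fold lower in EBF1-dTAG_C in the authors' deposited tables. Baiap2l1, an I-BAR gene like Mtss1, was 2.79-fold lower in EBF1-dTAG_N and 3.39-fold lower in EBF1-dTAG_C in the authors' deposited tables, and the LEM domain gene Tmpo was 2.03-fold and 2.55-fold lower. For ARF GAP genes the strongest were Arap3 in EBF1-dTAG_N, 4.58-fold lower, and Arap1 in EBF1-dTAG_C, 3.35-fold lower, in the authors' deposited tables. Asb17 and the glypican gene Gpc1 fell in EBF1-dTAG_N per the authors' deposited table, by 2.29-fold and 10.7-fold, and no ASB, syndecan or glypican gene outside the 10 fell in EBF1-dTAG_C.

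Genes with a single strong loss among otherwise uncalled regions were looked for outside the set. The rule asked for at least 5 regions in each line, overlapping leads at a log2 fold change of -3 or lower in both lines and no other called region. It was met by 11 genes outside the 10, and by none of the 10 in both lines. Of the 10, Hnrnpl and Adap1 had no called region besides the lead in EBF1-dTAG_C, and each had called regions besides it in EBF1-dTAG_N. Ordered by the p-value in EBF1-dTAG_C, the first was Oat, which encodes ornithine aminotransferase, at -4.40 in EBF1-dTAG_N and -4.91 in EBF1-dTAG_C in the authors' deposited tables, 76.6 kb from its region. Next came Zfyve28, at -4.69 and -5.01, and 4932438H23Rik, at -4.98 and -4.95 in the authors' deposited tables, both with the region inside the gene. By the size of the gap between lead and other regions, the 10 genes ranked from 49 to 1519 of 3166 in EBF1-dTAG_N and from 23 to 754 of 1742 in EBF1-dTAG_C.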

How the data were processed

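Chromatin accessibility was measured by ATAC-seq in 8 libraries, grouped by line and treatment from the sample titles and the treatment label. For the control libraries, which the titles call 0 h, the treatment label (DMSO for 6 h) was followed. Replicate numbers follow the titles. The peak names inside the EBF1-dTAG_C lists carry numbers of their own, 1 and 3 for dTAG-13 replicates 1 and 2, and 4 and 2 for DMSO replicates 1 and 2. Per the submitters' processing notes the tools were edgeR 3.32.0, MACS2 2.2.7.1, deepTools 3.3.2, SAMtools 1.10 and Bowtie2 2.3.5.1, on the build GRCm38 (mm10). The sources used here do not give what each tool did, how reads were filtered or shifted for Tn5, or how libraries were scaled.

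The authors deposited 1 peak list per library, giving each peak's score, fold enrichment, −log10 p-value and −log10 q-value. Their other deposited files are 1 table of regions per line, with the log2 fold change, abundance on the log2 CPM scale, F score, p-value and adjusted p-value of dTAG-13 against DMSO. These tables hold no value per library, so nothing was refitted and no error or n stands beside a fold. A region is called at a deposited adjusted p-value under 0.05. Repeated entries, 12 in EBF1-dTAG_N and 8 in EBF1-dTAG_C, were counted once. A positive fold was taken as more accessible after dTAG-13: 97.8% of regions of EBF1-dTAG_N with peaks in dTAG-13 lists alone had one, and 94.9% in EBF1-dTAG_C. From F and p the denominator degrees of freedom were 110386 in EBF1-dTAG_N and 11.2 in EBF1-dTAG_C. The first is far more than 4 libraries give, so its p-values rest on a spread pooled over regions and cannot be compared with those of EBF1-dTAG_C.

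Summit pileups were solved from the peak's fold enrichment and −log10 p with a relative tolerance of 1e-04, as whole numbers for 99.7% to 100% of peaks. Where a region met several peaks, that with the highest fold enrichment was used. Regions and peaks sharing 1 bp or more were matched. Centred folds subtract the median of the table, with an approximate standard error from the fold and F. Solver, overlap and centring were tested on simulated data. Gene spans and starts came from RefSeq GRCm38.p6, without exons. Python 3.11.15, pandas 2.3.3, numpy 2.4.6, scipy 1.17.1 and matplotlib 3.10.9 were used. The genes, family lists and tests were chosen with earlier results of these data known. For each gene the text names the lead region, the next fall by p-value and the rise with the smallest p-value, and for each family the gene with the smallest p-value of a fall. Other named regions were chosen after their values were seen. Alternatives covered the assignment distance, centring, thresholds, degrees of freedom, the lead rule, abundance, peak strength and overlap, and each library left out.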

Additional observations from a re-analysis of the deposited data

How the results depend on the processing

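The 40 alternative values of the lead fold changes came from centring and from taking the most negative region as lead. All were negative, but neither setting could make a falling lead positive, so this sign was fixed in advance. Of the 93 alternatives to the counts and medians, 75 stayed close to the reported value. With regions assigned within 20 kb, the median gap was -3.66 in EBF1-dTAG_N and -3.56 in EBF1-dTAG_C, and 4 leads of EBF1-dTAG_N had no dTAG-13 peak. With the most negative region as lead, the leads of 7 genes overlapped between the lines in place of 10, the gap was -3.79 in EBF1-dTAG_N and -3.71 in EBF1-dTAG_C, and again 4 leads of EBF1-dTAG_N had no dTAG-13 peak. The 31 rises of EBF1-dTAG_N became 15 after centring, 17 at an adjusted p under 0.01, 8 when the log2 fold change also had to reach 1 in size and 19 with the degrees of freedom of EBF1-dTAG_C. Centring moved the median of the other regions of EBF1-dTAG_N to -0.13, which its construction shows. Among all called member regions of that line, leads included, it took the share of falls to 78.3%, against 60.3% as deposited. With regions of at least 3 log2 CPM alone, 4 genes of EBF1-dTAG_C had a further fall, the gap in EBF1-dTAG_N was -3.04, and other regions with peaks in both DMSO lists and no dTAG-13 list numbered 11 in EBF1-dTAG_N and 5 in EBF1-dTAG_C, in place of 23 and 18. With peaks at a −log10 q of at least 10, 5 leads of EBF1-dTAG_N and 7 of EBF1-dTAG_C had peaks in both DMSO lists and no dTAG-13 list, in place of 2 and 4. With each library left out, that count ranged from 2 to 2 in EBF1-dTAG_N and from 4 to 5 in EBF1-dTAG_C for leads, and from 25 to 31 and from 21 to 28 for other regions, the 28 without DMSO replicate 1 of EBF1-dTAG_C. Beyond what a setting's construction shows, the cause was not tested.

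No paired analysis was possible because the result comes from no test: the deposited region tables hold no value per library. The peak summits per library are not scaled for depth, and the replicate numbers inside the EBF1-dTAG_C lists differ from the titles. Unknown read depth limits the peak summits, and a missing peak is not a value of 0.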
